A study of Mus musculus with 8 samples.

Results

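Syndecans and glypicans are the 2 families of cell-surface proteoglycans that carry heparan sulfate, and their mRNAs were read from RNA-seq of Myc-CaP tumor cells. The family list names 10 genes, the syndecans *Sdc1* to *Sdc4* and the glypicans *Gpc1* to *Gpc6*, and all 10 were found by symbol among the 39089 genes of the deposited tables. The list was selected on earlier results of these samples, in which *Arid1a* KO tumors had less *Sdc3* than WT tumors under vehicle. That contrast is therefore given below as a description without a test, and so is the difference between genotypes in the response to JSH-23, which contains it.

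Myc-CaP is a prostate cancer line from an FVB mouse in which a probasin promoter drives a *Myc* transgene. The cells carried either an empty control vector (EV, called WT here) or a guide RNA against *Arid1a* (sgARID1A, called *Arid1a* KO or KO), which encodes a SWI/SNF chromatin remodeler subunit, and grew under the skin of male FVB hosts aged 6 weeks at inoculation. From day 16 the hosts received JSH-23, which blocks the entry of p65, a subunit of NF-κB, into the nucleus, by daily gavage for 2 weeks, or the corn oil vehicle. In the paper JSH-23 was taken from DMSO into corn oil, and the control arms of this experiment are labelled DMSO. Cells that were EpCAM-positive and CD45-negative were sorted, which gave 2 samples in each of 4 groups: vehicle-treated WT, vehicle-treated KO, JSH-23-treated WT and JSH-23-treated KO. All 8 samples thus share the *Myc* transgene and the host strain. The paper describes drug selection of infected cells and does not state whether a pool or a clone formed these tumors. A KO sample may therefore hold cells in which the gene is intact. The sources used here do not say which tumors entered which sample, and the p-values measure only the spread between these samples, which may be technical.

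Syndecans are membrane-spanning proteins whose short cytoplasmic tails bind PDZ adaptors and, in syndecan-4, protein kinase C alpha. Glypicans are held on the outer face of the membrane by a lipid anchor. On both, long heparan sulfate chains capture growth factors, chemokines and morphogens, so that the cores act as co-receptors for FGF, Wnt and Hedgehog ligands and as docking sites on the matrix. In epithelia syndecan-1 is the usual main form, syndecan-4 sits in focal adhesions, and syndecan-3 is best known from the nervous system and muscle.

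Total counts ranged from 16401581 to 21972231 per sample, at which 3 counts, taken as the lowest level told from 0, correspond to between 0.137 and 0.183 CPM (counts scaled to library size, for counting error only). *Arid1a* (chr4:133679008-133756769, mm10) was at 158 and 163 CPM in vehicle-treated WT tumors and 106 and 109 CPM in vehicle-treated KO tumors, and at 145 and 156 CPM in JSH-23-treated WT tumors and 89.7 and 91.0 CPM in JSH-23-treated KO tumors. Every sample labelled KO was thus below every WT sample, and the transcript was still present in each. The marker of the sorting gate, *Epcam*, had between 0 and 4 counts per sample and *Cdh1* between 1 and 19, whereas *Krt8* had between 540 and 2308. The sorted cells are accordingly described by their gate and cell line, not by an epithelial marker profile. Over 8 epithelial markers the summed TPM was between 173 and 196 in vehicle-treated WT tumors and 440 and 441 in vehicle-treated KO tumors, and between 91.8 and 98.6 in JSH-23-treated WT tumors and 277 and 288 in JSH-23-treated KO tumors. Over 16 immune markers, 7 of which exceeded 3 counts in any sample and with *Ptprc* (CD45) at 0 to 10 counts, it was between 42.2 and 44.2, 43.5 and 49.2, 23.7 and 41.7, and 18.9 and 24.4 in the same order of groups. Over 10 fibroblast markers, 7 of which exceeded 3 counts, it was between 18.0 and 21.1 in 3 of the groups and between 11.03 and 11.7 in JSH-23-treated KO tumors. Over 5 prostate markers, *Fkbp5* and *Hoxb13* with 3 at 2 counts or fewer, the sum ran the other way, at 626 to 635 TPM and 496 to 511 TPM under vehicle (WT, then KO) and 709 to 715 TPM and 636 to 645 TPM under JSH-23. Over 5 erythroid markers, mostly *Hba-a1*, it was at 18.5 to 31.2 TPM and 54.4 to 57.5 TPM under vehicle and 24.5 to 27.4 TPM and 34.0 to 42.1 TPM under JSH-23. The epithelial sum, carried by *Krt8*, *Krt19* and *Elf3*, and the erythroid sum were thus higher in KO tumors and the prostate sum lower. The fibroblast sum, mostly *Pdgfra* (9.02 to 17.1 TPM), was lowest in JSH-23-treated KO tumors. The immune sum, mostly *Cd68* (9.67 to 37.2 TPM) and *Lyz2* (4.66 to 24.7 TPM), was low there too but overlapped that of JSH-23-treated WT tumors. The part of these sums in the results below was not tested. In such bulk samples, fewer cells that express a gene and less RNA per cell cannot be told apart.

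The sequences upstream of *Sdc1*, *Sdc3*, *Sdc4* and *Gpc4* are shown because the results turn on these 4 genes, *Sdc3* as the member called between genotypes, *Gpc4* and *Sdc1* as those called with JSH-23, and *Sdc4* as the most abundant. Each is the 250 bases before the annotated start (RefSeq, GRCm38.p6), 5′ to 3′ on the strand of the gene, and capitals mark a match to the κB consensus, the binding motif of NF-κB. They lie at chr12:8771146-8771395 on the plus strand for *Sdc1*, at chr4:130792287-130792536 on the plus strand for *Sdc3*, at chr2:164443189-164443438 on the minus strand for *Sdc4* and at chrX:52164924-52165173 on the minus strand for *Gpc4*.
Sdc1: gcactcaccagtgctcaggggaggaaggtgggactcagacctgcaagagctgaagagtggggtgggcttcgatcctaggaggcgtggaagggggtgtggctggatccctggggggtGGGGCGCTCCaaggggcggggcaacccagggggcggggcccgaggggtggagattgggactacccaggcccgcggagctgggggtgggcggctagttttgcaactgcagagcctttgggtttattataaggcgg
Sdc3: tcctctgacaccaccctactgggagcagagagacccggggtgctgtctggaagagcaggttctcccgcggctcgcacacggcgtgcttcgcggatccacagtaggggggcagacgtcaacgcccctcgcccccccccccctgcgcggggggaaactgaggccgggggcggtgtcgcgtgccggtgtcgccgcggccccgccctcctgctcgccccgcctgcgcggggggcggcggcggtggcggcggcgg
Sdc4: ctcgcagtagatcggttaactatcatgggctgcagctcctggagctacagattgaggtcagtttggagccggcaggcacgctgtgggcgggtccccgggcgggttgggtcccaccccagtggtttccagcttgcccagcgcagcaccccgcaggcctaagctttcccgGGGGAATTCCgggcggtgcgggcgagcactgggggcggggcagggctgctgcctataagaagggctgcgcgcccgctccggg
Gpc4: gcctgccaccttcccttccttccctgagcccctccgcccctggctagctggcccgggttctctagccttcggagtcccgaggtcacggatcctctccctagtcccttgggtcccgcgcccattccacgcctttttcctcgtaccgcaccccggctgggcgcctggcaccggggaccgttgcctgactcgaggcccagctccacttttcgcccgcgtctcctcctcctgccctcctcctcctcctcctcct
The κB consensus was searched on both strands in windows from 250 bases before to 50 bases after the start, which the reference tables hold for 7 of the 10 members (*Sdc1*, *Sdc3*, *Sdc4* and *Gpc2* to *Gpc5*; not *Sdc2*, *Gpc1* or *Gpc6*). It matched in *Sdc4*, from 82 to 73 bases before the start (GGGGAATTCC), and in *Sdc1*, from 134 to 125 bases before it (GGGGCGCTCC), and in none of the other 5 members' windows, among them those of *Gpc4* and *Sdc3*. Of all 32851 windows of that length, 8.46% held a match. An AP-1 motif (TGANTCA, in 7.81% of all windows) and an E-box (CACGTG, in 7.15%) were in none of the 7 windows. A GC box (GGGCGG, in 35.7% of all windows) was in all 7, and in *Sdc4* 1 of its 4 copies directly follows the κB match. The *Sdc3* window held 44 CpG dinucleotides, more than or as many as 98.1% of all windows, against 22 in *Sdc4* and in *Gpc4*, 14 in *Sdc1* and a median of 7 over all windows. These matches describe letters in the windows and no binding was measured.

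Of the 10 members, 5 passed the filter on low counts (*Sdc1*, *Sdc3*, *Sdc4*, *Gpc1* and *Gpc4*), and the other 5 were at or near 0 in every sample. *Gpc5* had 0 counts in all 8 samples, which allows up to 3 counts in each. *Gpc2* had 1 count in 1 sample, *Gpc6* at most 2 and *Sdc2*, the syndecan typical of mesenchymal cells, at most 5. *Gpc3*, an oncofetal glypican, had between 1 and 6 counts. No difference between groups in these 5 genes was detectable at this depth.

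Levels per gene length, as TPM (the authors' count divided by gene length and rescaled to a fixed sum), placed *Sdc4* far above the rest. *Sdc4* (chr2:164424247-164443188) was at 1026 and 1016 TPM in vehicle-treated WT tumors and 967 and 970 TPM in vehicle-treated KO tumors, and at 727 and 739 TPM in JSH-23-treated WT tumors and 804 and 831 TPM in JSH-23-treated KO tumors. *Sdc1* (chr12:8771396-8793716) was next, at 66.1 and 63.1 TPM in vehicle-treated WT tumors and 57.8 and 56.9 TPM in vehicle-treated KO tumors, and at 93.3 and 98.6 TPM in JSH-23-treated WT tumors and 62.9 and 65.3 TPM in JSH-23-treated KO tumors. The 4 groups of *Sdc4* samples did not overlap, whereas for *Sdc1* the samples of JSH-23-treated KO tumors overlapped those of vehicle-treated WT tumors on this scale.

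*Sdc3* (chr4:130792537-130826318) was at 13.5 and 14.9 TPM in vehicle-treated WT tumors and 1.22 and 1.09 TPM in vehicle-treated KO tumors, and at 12.1 and 10.9 TPM in JSH-23-treated WT tumors and 0.600 and 0.802 TPM in JSH-23-treated KO tumors. *Gpc4* (chrX:52051007-52164923) was at 10.2 and 9.29 TPM, 10.4 and 9.33 TPM, 11.2 and 11.1 TPM, and 11.9 and 13.9 TPM in the same order of groups, and *Gpc1* (chr1:92831645-92860211) at 5.02 and 5.68 TPM, 7.32 and 7.08 TPM, 5.01 and 5.44 TPM, and 5.99 and 5.31 TPM. In WT tumors *Sdc3* thus ranked next after *Sdc4* and *Sdc1* under vehicle, and its samples overlapped those of *Gpc4* under JSH-23 (11.5 ± 0.80 against 11.2 ± 0.072 TPM, SD, n = 2). In KO tumors *Sdc3* ranked below *Gpc4* and *Gpc1* in every sample.

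**Figure D1:**
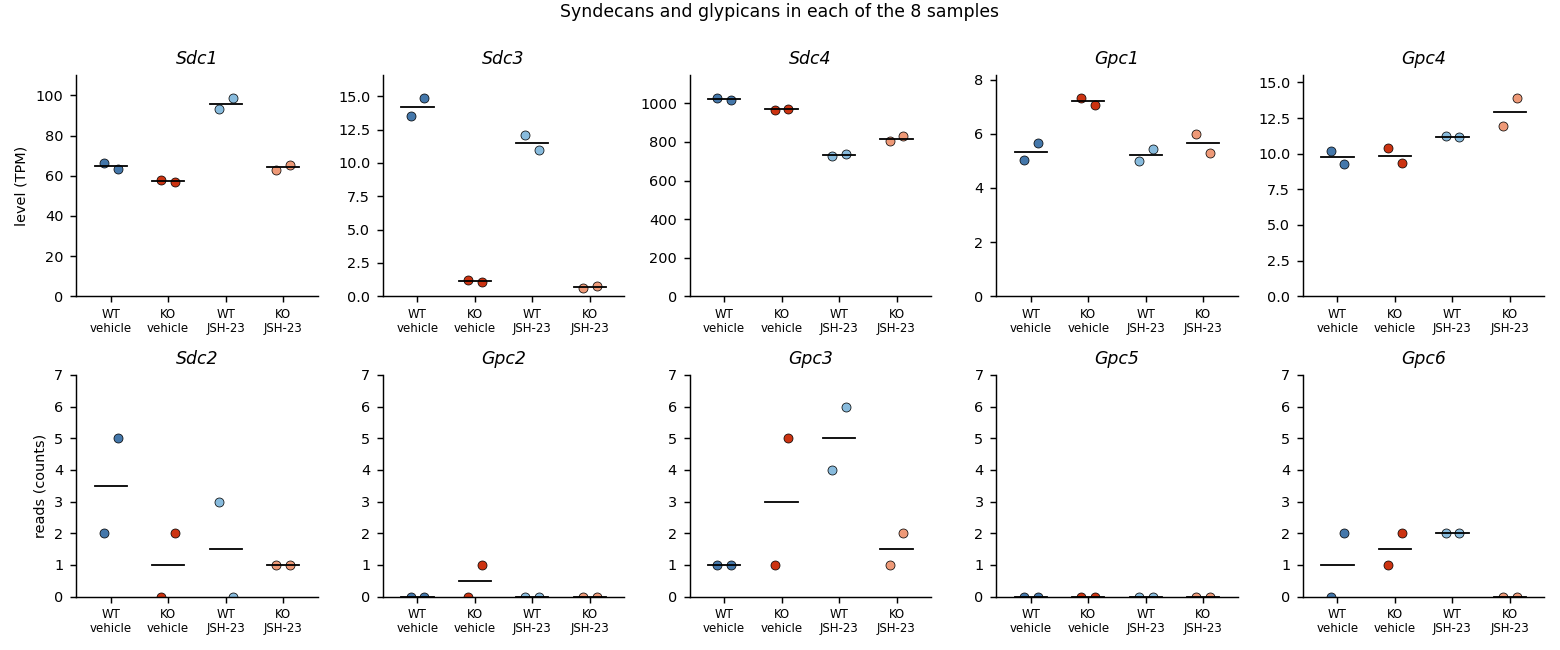
Level of each of the 10 members in the 8 samples. The upper row plots TPM of the 5 members that passed the filter and the lower row plots read counts of the other 5, with points for samples and a line at the mean of each group of 2. *Sdc3* lies at 10.9 TPM or more in every WT sample and at 1.22 TPM or less in every KO sample, and no gene of the lower row has more than 6 counts.

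*Sdc4* made up most of the syndecan mRNA in every group. Its share of the summed syndecan TPM was 92.8% ± 0.043 in vehicle-treated WT tumors and 94.3% ± 0.070 in vehicle-treated KO tumors, and 87.2% ± 0.17 in JSH-23-treated WT tumors and 92.6% ± 0.036 in JSH-23-treated KO tumors (SD, n = 2). The share of *Sdc1* was 5.87% ± 0.15, 5.58% ± 0.066, 11.4% ± 0.29 and 7.27% ± 0.022 in that order, and that of *Sdc3* 1.29% ± 0.095, 0.112% ± 0.0089, 1.37% ± 0.11 and 0.0793% ± 0.014. *Sdc3* was thus a minor part of the family's summed mRNA in WT tumors too, and that sum was between 832 and 1106 TPM over all samples. The ratio of *Sdc4* to *Sdc1* within a sample, which no scaling between samples can change, was 15.5 and 16.1 in vehicle-treated WT tumors and 16.8 and 17.1 in vehicle-treated KO tumors. With JSH-23 it was 7.79 and 7.50 in WT and 12.8 and 12.7 in KO tumors, lower than with vehicle in both genotypes.

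Among glypicans, *Gpc4* and *Gpc1* made up nearly all of the mRNA. The share of *Gpc4* in the summed glypican TPM was 64.3% ± 3.6, 57.1% ± 1.9, 66.9% ± 1.8 and 69.2% ± 4.0 (SD, n = 2) in the same order of groups, and that of *Gpc1* was 35.3% ± 3.5, 41.8% ± 0.86, 31.2% ± 1.2 and 30.4% ± 4.1. The summed glypican TPM was between 15.0 and 19.3 over all samples, far below the syndecan sum. The ratio of *Gpc4* to *Gpc1* within a sample was 2.04 and 1.64, 1.42 and 1.32, 2.24 and 2.05, and 1.99 and 2.62 in the same order, and only in vehicle-treated KO tumors did it lie below that of all other samples.

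**Figure D2:**
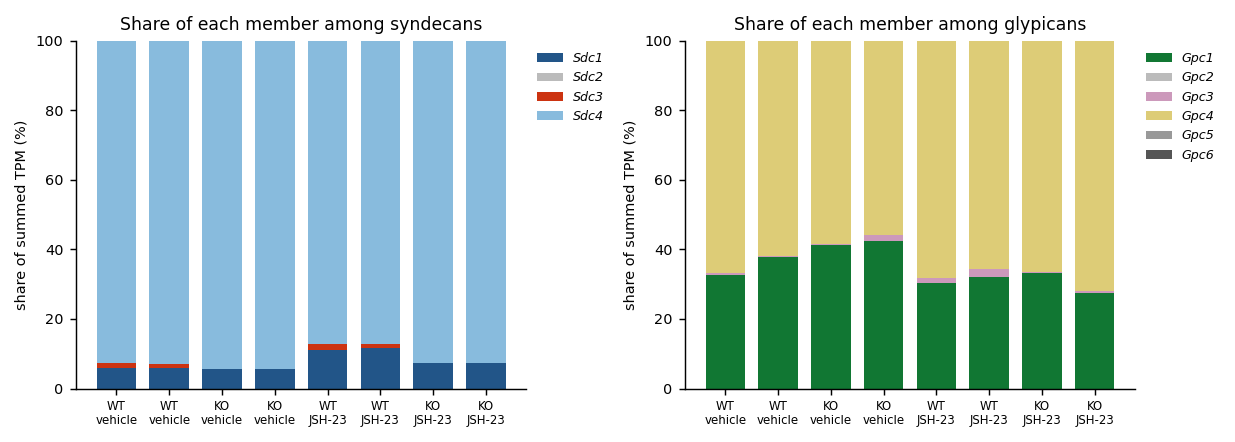
Share of each member in the summed TPM of syndecans (left) and of glypicans (right), in percent, with a bar for each of the 8 samples. *Sdc4* takes between 87.2% and 94.3% of the syndecan sum as group means, and the *Sdc1* share is largest in JSH-23-treated WT tumors, at 11.4%.

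To compare a gene between groups, counts were scaled to library size with TMM factors (edgeR's trimmed mean of M-values) and the 8 samples were fitted together with the quasi-likelihood test of edgeR, its p-values adjusted by Benjamini-Hochberg over 13921 genes. Rose and fell are used for an adjusted p under 0.05, and a gene is called changed if it also differed at least 1.5-fold. In *Arid1a* KO against WT tumors under vehicle, the contrast on which the family was selected, *Sdc3* was at 2.71 and 2.42 CPM against 30.2 and 33.1 CPM (log2 fold change -3.63, standard error 0.13), or 12.4-fold lower. *Gpc1*, a glypican of many carcinomas, differed by 0.42 (standard error 0.11). *Sdc1* and *Sdc4* differed by -0.18 and -0.08, and *Gpc4* by 0.01. In all, 1 member passed the calling threshold, downward, where 5.16% of all tested genes were called lower and 7.48% higher, and nothing is read from that count. The adjusted p alone was under 0.05 for 50.5% of all tested genes.

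The comparison of KO with WT tumors, both treated with JSH-23, shared no sample with the vehicle contrast. It asks whether the members differ by genotype under this treatment. The tumors compared grew from the same EV and sgARID1A cells as those under vehicle, and the list was chosen with earlier results of these data known. The comparison is therefore no independent check of the vehicle contrast. *Sdc3* was at 1.57 and 2.11 CPM in KO against 27.7 and 25.2 CPM in WT tumors. It fell by 3.83 on the log2 scale (standard error 0.14, edgeR adjusted p = 3.06e-35), or 14.2-fold, and was the only member called, where 4.97% of all tested genes were called lower and 3.74% higher. *Sdc1* fell by 0.39 (standard error 0.039, edgeR adjusted p = 1.28e-13), with 96.3 and 101 CPM in KO against 125 and 133 CPM in WT tumors. *Sdc4* rose by 0.35 (standard error 0.017, edgeR adjusted p = 6.28e-28), with 917 and 955 CPM against 728 and 742 CPM. The 2 main syndecans thus differed between genotypes in opposite directions with JSH-23, neither by 1.5-fold. With limma on log2(TPM + 1) the directions held, at -0.57 for *Sdc1* (adjusted p = 3.17e-05) and 0.16 for *Sdc4* (adjusted p = 0.000396).

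Both measurable glypicans were higher in JSH-23-treated KO tumors by small amounts. *Gpc4*, which binds Wnt and FGF ligands, was at 32.4 and 38.0 CPM against 26.8 and 26.6 CPM (log2 fold change 0.40, standard error 0.078, edgeR adjusted p = 1.20e-05). *Gpc1* was at 14.8 and 13.2 CPM against 10.9 and 11.9 CPM (log2 fold change 0.30, standard error 0.11, edgeR adjusted p = 0.0196). All 5 measurable members thus passed the adjusted p alone, as did 47.0% of all tested genes, so a small difference past this test was common. On the TPM scale, on which the median of all tested genes was -0.16 in this comparison against -0.01 after TMM scaling, limma on log2(TPM + 1) gave 0.19 for *Gpc4* (adjusted p = 0.1301) and 0.09 for *Gpc1* (adjusted p = 0.440), so neither glypican's difference passed there. DESeq2 gave 0.30 for *Gpc1* (adjusted p = 0.124), and without replicate 1 of JSH-23-treated WT or of JSH-23-treated KO tumors edgeR gave 0.24 and 0.23 (both with adjusted p = 0.166).

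**Figure D3:**
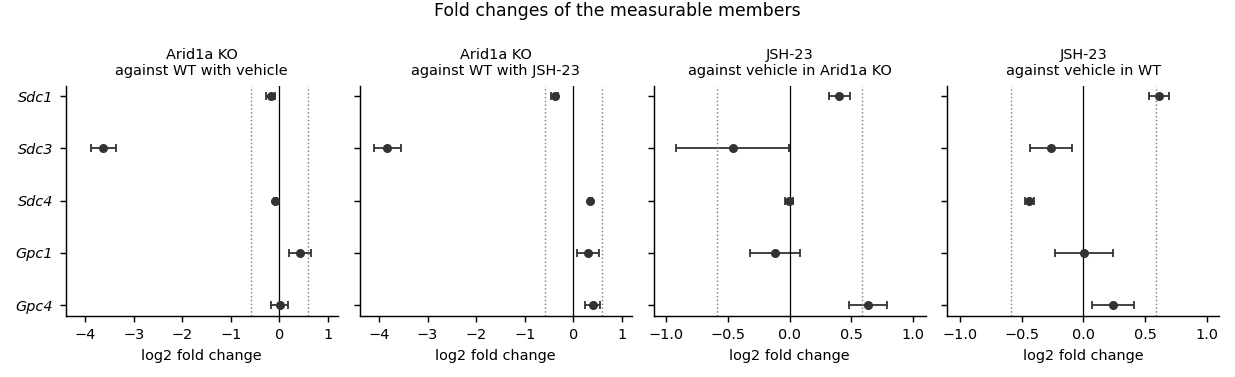
Log2 fold change of the 5 measurable members in the 4 comparisons, as points with 95% intervals from edgeR, with dotted lines at 1.5-fold and different axis ranges for the genotype and the JSH-23 comparisons. *Sdc3* lies at -3.63 with vehicle and at -3.83 with JSH-23, far from the other members, and the JSH-23 comparisons span less than 1 log2 unit in either direction. The vehicle comparison selected the family and is shown as a description.

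JSH-23 against vehicle was tested within each genotype. The vehicle samples are shared with the contrast that selected the family. In WT tumors *Sdc1* rose by 0.61 on the log2 scale (standard error 0.041, edgeR adjusted p = 2.98e-21), or 1.53-fold, from 86.6 and 82.5 to 125 and 133 CPM, and was the only member called, where 5.55% of all tested genes were called higher and 10.2% lower. *Sdc4* fell by 0.44 (standard error 0.018, edgeR adjusted p = 2.31e-33), from 1002 and 989 to 728 and 742 CPM. *Sdc3* fell by 0.26 (standard error 0.085, edgeR adjusted p = 0.00733) and *Gpc4* rose by 0.24 (standard error 0.086, edgeR adjusted p = 0.0148). *Gpc1* differed by 0.01 (95% interval -0.23 to 0.24, edgeR adjusted p = 0.974). In all, 4 of the 5 measurable members passed the adjusted p alone, where 55.8% of all tested genes did.

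The *Sdc1* call in WT tumors lay just past 1.5-fold. It dropped below that fold, though not below the adjusted p, with limma on TPM values (0.56 with 1 added and 0.57 with 0.1 added) and without replicate 2 of vehicle-treated or of JSH-23-treated WT tumors (0.58 in either case). The *Sdc3* and *Gpc4* differences in WT tumors missed the adjusted p with DESeq2 (0.109 and 0.0891) and without replicate 2 of vehicle-treated WT tumors (0.136 and 0.178).

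In KO tumors *Gpc4* was the member called with JSH-23. It rose from 24.0 and 21.6 to 32.4 and 38.0 CPM (log2 fold change 0.63, standard error 0.078, edgeR adjusted p = 7.39e-11), or 1.55-fold, where 9.10% of all tested genes were called higher and 16.9% lower. *Sdc1* rose by 0.40 (standard error 0.042, edgeR adjusted p = 2.14e-13), from 75.2 and 74.1 to 96.3 and 101 CPM. *Sdc4* was at 940 and 941 CPM with vehicle and 917 and 955 CPM with JSH-23, with overlap and a difference of -0.01 (95% interval -0.04 to 0.03, edgeR adjusted p = 0.734). *Gpc1* differed by -0.12 (edgeR adjusted p = 0.320). *Sdc3*, already low, was at 2.71 and 2.42 CPM with vehicle and 1.57 and 2.11 CPM with JSH-23, a difference of -0.46 (standard error 0.23, edgeR adjusted p = 0.0687) that rests on 29 to 50 counts per sample. Of the 5 members, 2 passed the adjusted p alone, where 67.8% of all tested genes did.

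Values in KO tumors depended on the scaling, since the median of all tested genes with JSH-23 was -0.02 after TMM scaling, -0.13 without scaling beyond library size and -0.20 on the TPM scale. On the TPM scale *Sdc4* fell by 0.24 with JSH-23 in KO tumors (adjusted p = 2.18e-05 from limma on log2(TPM + 1)), close to that median, and *Sdc1* rose by 0.16 (adjusted p = 0.00814). The *Gpc4* call was below 1.5-fold without scaling (0.52), on the TPM scale (0.35 and 0.38 with 1 and 0.1 added) and without replicate 2 of vehicle-treated (0.56) or of JSH-23-treated KO tumors (0.53). For *Sdc3*, the difference passed both thresholds with limma on log2(TPM + 0.1) (-0.66, adjusted p = 0.00681) and without replicate 2 of JSH-23-treated KO tumors (-0.68, adjusted p = 0.0447).

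The response to JSH-23 differed between genotypes, as a description, by 0.43 on the log2 scale for *Sdc4* (standard error 0.024; KO minus WT), which after TMM scaling was lower with JSH-23 in WT tumors and differed by -0.01 in KO tumors. The difference was -0.21 for *Sdc1* (standard error 0.059), which was higher with JSH-23 in both genotypes and more so in WT tumors. For *Gpc4* it was 0.39 (standard error 0.12), for *Gpc1* -0.12 (standard error 0.16) and for *Sdc3* -0.20 (standard error 0.24). On the TPM scale (limma on log2(TPM + 1)) the differences were 0.23 for *Sdc4*, -0.40 for *Sdc1*, 0.17 for *Gpc4*, -0.28 for *Gpc1* and -0.06 for *Sdc3*, where the median of all tested genes was -0.17. Over all tested genes 9.07% passed the adjusted p and 1.5-fold for this difference in either direction. No member was raised in every sample of a genotype and lowered in every sample of the other. Across the 8 samples log2 CPM of *Sdc1* and *Sdc4* had a Pearson r of -0.85, and that of *Sdc3* and *Gpc1* of -0.90, both over points that fall into the 4 groups and share libraries.

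*Sdc3* and *Arid1a* lie on the same chromosome, 2853 kb apart, so the genes around *Sdc3* were read as a description of its neighborhood. The nearest tested gene downstream, *Laptm5*, a gene of leukocyte lysosomes 86.6 kb away, had 0.83 CPM (WT) and 0.073 CPM (KO) under vehicle, then 0.25 and 0.075 CPM under JSH-23. It had the most negative fold change with vehicle of the 45 tested genes between *Sdc3* and *Arid1a* (-3.31, standard error 0.84) from a few counts, and a difference of -1.69 (standard error 1.1, edgeR adjusted p = 0.198) with JSH-23. The most positive, 1.42 (standard error 0.64), was that of *Sfn*, also under 1 CPM.

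Of these 45 genes, 7 were called higher and 4 lower in vehicle-treated KO tumors, with a median of 0.06, and 1 higher and 1 lower with JSH-23, with a median of -0.01. The 4 lower genes with vehicle were *Laptm5*, *Snora73b*, *Tent5b* and *Gm13257*, and the 2 called with JSH-23 were *Ptpru* (-1.36, standard error 0.18) and *Rpa2* (0.80, standard error 0.11), named here after their values were seen. On the rest of the chromosome 64 of 822 tested genes were called higher and 37 lower with vehicle, and 29 higher and 37 lower with JSH-23. Over all tested genes, 7.48% were called higher and 5.16% lower with vehicle, and 3.74% and 4.97% with JSH-23. The difference in *Sdc3* was thus not shared by most of the genes up to *Arid1a*.

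**Figure D4:**
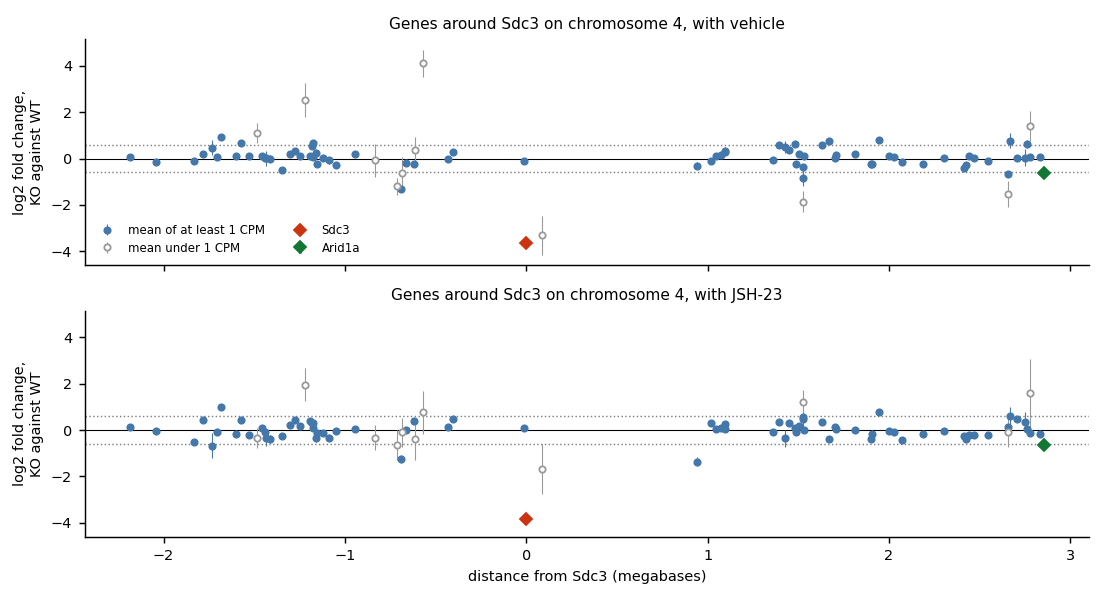
Log2 fold change of KO against WT tumors for tested genes around *Sdc3*, against their distance from *Sdc3* in megabases, with vehicle (top) and JSH-23 (bottom). Bars are standard errors, open points are genes with a mean under 1 CPM and dotted lines mark 1.5-fold. *Sdc3* stands at -3.63 and -3.83, while the median of the 45 genes between it and *Arid1a* is 0.06 and -0.01.

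Genes whose level was most like that of a member were ranked by Pearson r of log2 CPM over the 8 samples among the 12241 genes that averaged 1 CPM or more. For *Sdc3* they were *Mrps30* (0.997), *Fam193b* (0.995) and *Adamts14* (0.995), for *Sdc1* *Plcl1* (0.991), *Atad1* (0.991) and *Arrdc2* (0.989), and for *Gpc4* *Vps25* (0.984), *Ndufab1* (0.981) and *Rnf185* (0.980). Such values rest on 4 groups of 2 and are descriptions. The group means of *Sdc3* spanned 4.10 log2 units, against 0.79 for *Sdc1*, 0.63 for *Gpc4*, 0.44 for *Sdc4* and 0.42 for *Gpc1*.

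The genes that build, edit and release heparan sulfate, or that bind it, were read from 9 lists with 102 genes, of which 71 passed the filter. In *Arid1a* KO against WT tumors under JSH-23, 2 were called higher (2.82%) and 4 lower (5.63%), near the 3.74% and 4.97% of all tested genes. Their median was -0.12 on the log2 scale against -0.01 for all genes. *Hpse*, the heparanase that cuts the chains, rose by 1.82 (standard error 0.30, edgeR adjusted p = 5.78e-07), from 0.80 to 2.89 CPM, and *Papss1*, which makes the sulfate donor, rose by 0.61 (standard error 0.032, edgeR adjusted p = 3.90e-27). *Pxylp1*, the phosphatase that acts on the linker xylose, fell by 1.11 (standard error 0.24, edgeR adjusted p = 5.72e-05), and *Wnt5a*, a ligand that heparan sulfate captures, fell by 0.83 (standard error 0.064, edgeR adjusted p = 2.67e-18). The other 2 lower genes, *Mmp14*, a protease that sheds syndecans, and *Hspg2*, the matrix proteoglycan perlecan, had means under 1 CPM. With vehicle, 4 of the 71 were called higher (5.63%) and 5 lower (7.04%), against 7.48% and 5.16% of all tested genes.

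With JSH-23 in KO tumors, 1 of the 71 genes was called higher (1.41%) and 11 lower (15.5%), against 9.10% and 16.9% of all tested genes, with a median of -0.15. The 1 that rose was *Ext1*, a subunit of the polymerase that extends the chains, by 0.61 (standard error 0.044, edgeR adjusted p = 2.62e-20), from 65.8 to 100.1 CPM. The chain initiation and linker genes *B3galt6* and *Pxylp1* fell (log2 fold changes -1.35 and -0.87). Of the 5 polymerization genes, the EXT-like transferases *Extl1* and *Extl3* fell (-1.203 and -1.03). Of the 6 measured modification genes, *Hs6st1*, a 6-O-sulfotransferase, and *Glce*, the epimerase, fell (-0.74 and -0.68). Of the degradation genes, *Hpse* and the lysosomal *Hgsnat* fell (-1.15 and -0.87), and of the partners of syndecan tails *Prkca*, which encodes protein kinase C alpha, fell by 0.68. *Wnt5a* fell by 0.63, and *Hspg2*, under 1 CPM, was called lower as well (edgeR adjusted p = 0.0146). The adjusted p of the other named genes was between 1.26e-22 (*Extl3*) and 0.00103 (*Pxylp1*) from edgeR.

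With JSH-23 in WT tumors, 2 of the 71 genes were called higher (2.82%) and 6 lower (8.45%), with a median of -0.02. Of all tested genes, 5.55% were called higher and 10.2% lower there. *B3galt6*, *Hpse*, *Prkca* and *Wnt5a* fell here too (-1.17, -1.19, -0.73 and -1.01). *Ugdh*, which makes the glucuronic acid donor, fell by 0.67 (standard error 0.025, edgeR adjusted p = 7.56e-35), from 355 to 223 CPM, and the growth factor *Fgf7* by 0.59 (standard error 0.090, edgeR adjusted p = 5.68e-08). *Extl1* rose by 0.60 (standard error 0.16, edgeR adjusted p = 0.00106) and *Col18a1*, the collagen XVIII proteoglycan, by 1.33 (standard error 0.45, edgeR adjusted p = 0.00888), from 0.62 to 1.58 CPM.

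**Figure D5:**
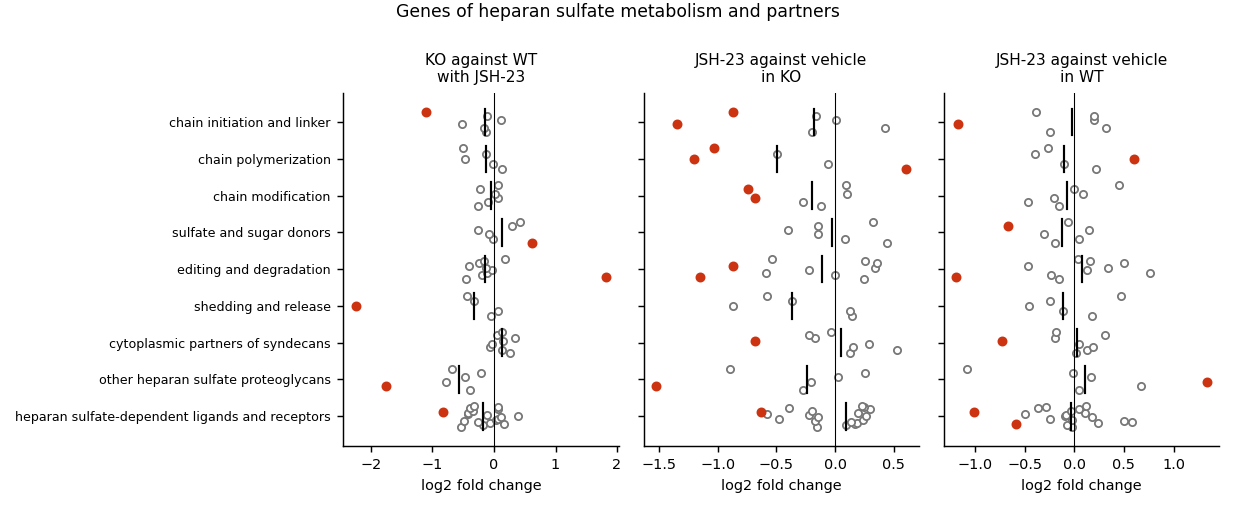
Log2 fold change of the 71 measured genes in 9 lists of heparan sulfate metabolism and partners in 3 comparisons, with a point per gene, filled where called, and a bar at the median of each list. In JSH-23-treated KO tumors the called points lie to the left except *Ext1*, and 11 of 71 are lower, a share of 15.5% against 16.9% of all tested genes.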

How the data were processed

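Bulk RNA-seq of 8 samples, 2 in each of 4 groups taken from the labels, was analysed. Reads were aligned to GRCm38/mm10 by the authors and counted per gene with HTSeq, by strand. Their methods name TopHat2 with the best match kept, while the submitters' processing notes name HISAT2, HTSeq and DESeq2. The deposited counts are whole numbers per gene without normalization, and the deposited TPM values were made by the authors from counts and gene length. Keeping the best match can misplace reads between near-identical copies of a gene, and strand-aware counting separates *Gpc1* from *Ankmy1* on the other strand, which had at most 15 counts. A deposited table that repeats the TPM values of all samples was not used.

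Counts were filtered with filterByExpr (13921 of 39089 genes kept), scaled with TMM (factors 0.949 to 1.03) and fitted with a mean per group over the 8 samples by edgeR 4.0.16's quasi-likelihood test (R 4.3.3, Benjamini-Hochberg adjustment). The common biological coefficient of variation was 1.61%. The alternatives were DESeq2 1.42.0, no scaling, other filters, limma 3.58.1 on log2(TPM + 1) and log2(TPM + 0.1), a replicate block, only the groups compared, other thresholds and each sample left out. The main edgeR fit, DESeq2 and limma on log2(TPM + 1) were tested on simulated counts, and the other alternatives were not. Promoter windows came from RefSeq (GRCm38.p6), and motifs were matched exactly on both strands.

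The members and gene lists were chosen with earlier results of these data known. Named genes are the members, *Arid1a*, up to 3 called genes per list, direction and tested comparison with a mean of at least 1 CPM, the neighbors of *Sdc3* with the largest fall and rise up to *Arid1a*, and the 3 genes most correlated with *Sdc3* and with the other 2 members of widest range. Some genes that these rules pick are not reported here.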

Additional observations from a re-analysis of the deposited data

Results flagged for a closer look

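Of the 15 named pathway genes, 6 differed between genotypes in their response to JSH-23 by the interaction term of the edgeR fit, with an adjusted p under 0.05 and responses at least 1.5-fold apart, as did 9.07% of all tested genes. The 15 were named because they were called in the comparisons that make up this term, so the count and the values below are descriptions. The difference, as the log2 response in *Arid1a* KO minus that in WT tumors, was -1.80 for *Extl1* (standard error 0.21), -1.54 for *Col18a1* (standard error 0.62), -0.76 for *Extl3* (standard error 0.095) and -0.74 for *Hs6st1* (standard error 0.081). It was 0.76 for *Fgf7* (standard error 0.13) and 0.63 for *Papss1* (standard error 0.045), all from the edgeR fit. *Extl1* rose in WT and fell in KO tumors (0.60 and -1.203 on the log2 scale). *Col18a1* was near 1 CPM in all groups.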

How the results depend on the processing

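Of 571 recomputed values, 514 kept direction and side of the threshold or moved by less than the replicate spread, and 0 reversed beyond that spread. Some could hardly change, since family shares do not depend on scaling between samples. Leaving out a sample of neither group compared also moved a value little. The 514 include small differences that changed sign, such as *Gpc4* under vehicle (0.006, and -0.072 without replicate 1 of vehicle-treated KO tumors). The fall of *Sdc3* in KO against WT tumors under JSH-23 was between -4.06 and -2.88 under its 16 alternatives and was called in all of them. By the adjusted p alone, 5 members passed in KO against WT tumors under JSH-23, and 2 and 4 with JSH-23 in KO and WT tumors. Under vehicle, the contrast that selected the family, 4 were under that p, as were 50.5% of all tested genes, and nothing is read from it. The member called with JSH-23 in KO tumors was lost (0 members) without scaling and with limma on log2(TPM + 1), and that in WT tumors (0 members) with limma on log2(TPM + 1) and on log2(TPM + 0.1). Leaving out each sample gave from 0 to 1 members in KO (0 without replicate 2 of the vehicle group; *Sdc3* in place of *Gpc4* without replicate 2 of the JSH-23 group) and from 0 to 1 in WT tumors (0 without replicate 2 of either group). Pathway genes called numbered 4 with limma on log2(TPM + 1) with vehicle (9 by edgeR). In KO against WT tumors under JSH-23 they numbered 3 with at least 10 counts in every sample, 10 with limma on log2(TPM + 1) and 14 on log2(TPM + 0.1) (6 by edgeR). With JSH-23 in WT tumors they numbered 5 with at least 10 counts in every sample and from 5 (without replicate 2 of WT tumors with JSH-23) to 11 with a sample left out (8 by edgeR). The cause of these changes was not tested.

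Replicate numbers did not pair the samples (correlation of deviations -0.0070 to 0.026 over 9194 genes), and a fit with the replicate block gave the same number of members called, 1, in each of the 4 comparisons. The depth limits statements on the 5 members at 6 counts or fewer.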
